A study of Arabidopsis thaliana with 8 samples.

Results

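The response to ethylene was measured in etiolated seedlings of the Arabidopsis thaliana double mutant e1-2-2 e2-2 (line #17, e1e2 below), as 4 poly(A)-selected libraries out of 8 in the series. The 2 ethylene libraries came from e1e2 seedlings given 10 ppm ethylene, and the 2 air libraries from e1e2 seedlings given hydrocarbon-free air. Per the labels, all seedlings were first grown for 3 days in the dark at 22 °C on Murashige and Skoog medium with 1% sucrose, and the hours of gas treatment are not given there. The other 4 libraries are the same treatments of a second double mutant, e2-2 e3-2-2 (line #67, e2e3 below). Both lines carry e2-2, each is a single named line, and no wild-type library was analysed here, so these counts do not show how the mutations alter the response to the gas. The labels do not say whether the replicates were separate plantings, so the p-values measure the spread between these samples, which may be technical. That spread was estimated over all 8 libraries of both lines and was largely shared across genes. Its common value, beyond counting error, was a coefficient of variation of 2.75%.

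Ethylene is a gas hormone bound by receptors in the endoplasmic reticulum. Without ethylene, the receptors keep the kinase CTR1 active and CTR1 holds EIN2 inactive. Binding of the gas releases EIN2, whose C-terminal part reaches the nucleus, where the transcription factors EIN3 and EIL1 accumulate. In dark-grown seedlings the known outcome is the triple response, a short thick hypocotyl and root with an exaggerated apical hook. By its title, the series concerns the pyruvate dehydrogenase complex (PDC) in the nucleus and histone acetylation directed by EIN2. PDC makes acetyl-CoA, the acetyl donor of histone acetyltransferases, from pyruvate.

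Counts were read pairs per gene, 14325334 and 14033113 in total for the ethylene libraries and 11522823 and 12728015 for the air libraries. Levels are given in CPM, counts scaled by library size and composition, or in TPM, which also divides by gene length, where genes are compared with each other. Across genes, log CPM correlated at 0.993 between the ethylene replicates and at 0.991 between the air replicates. E1 ALPHA (AT1G59900, chromosome 1, 22051133 to 22053885, plus strand), a gene for the E1 alpha subunit of mitochondrial PDC, read 20.2 and 19.2 CPM in ethylene, against 23.1 and 22.1 CPM in air, and did not pass the test (adjusted p = 0.0656, edgeR's quasi-likelihood test, Benjamini-Hochberg adjusted). The e2e3 libraries, which carry no e1 allele by their labels, had 214 to 231 CPM of E1 ALPHA. Of the 8 mitochondrial PDC subunit genes, 1 passed in e1e2: mtLPD2, an E3 subunit gene, had 149 and 150.3 CPM in ethylene, against 138 and 131 CPM in air (log2 change 0.16 ± 0.05, SE). That call was lost with DESeq2 (adjusted p = 0.0775) and without air library 2 (adjusted p = 0.118). The protochlorophyllide oxidoreductase genes PORA and PORB, which mark etiolated tissue, were abundant in all 4 libraries, and all 5 floral identity genes listed were below the limit for testing.

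Ethylene changed a large part of the e1e2 transcriptome, mostly by small amounts. Of 20193 genes tested, 3694 rose (18.3%) and 4217 fell (20.9%) at an adjusted p under 0.05. Counts within gene lists below are to be read against these 2 shares. The rises were the smaller ones, with a median log2 change of 0.36, against -0.54 among the genes that fell. At least 2-fold changes were called for 423 genes that rose (2.09%) and 898 that fell (4.45%), and at least 8-fold changes for 21 that rose and 30 that fell. The ethylene and air libraries did not overlap in CPM for 3676 of the genes that rose and 4200 of those that fell. Each called gene described with its values here is one of these. The calls use the same libraries, so a lack of overlap is no separate support for them. The share without overlap among all tested genes is not given here. The median of all tested genes was a log2 change of 0.01. With library size as the only scaling, which shifts the median by 0.067, the split became 5220 higher and 3492 lower, and DESeq2 called 2273 higher and 3138 lower. Genes called at least 2-fold lower held 24103 and 23935 TPM in ethylene, against 62575 and 62592 TPM in air. Genes called at least 2-fold higher held 28942 and 29073 TPM in ethylene, against 9579 and 9581 TPM in air.

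**Figure D1:**
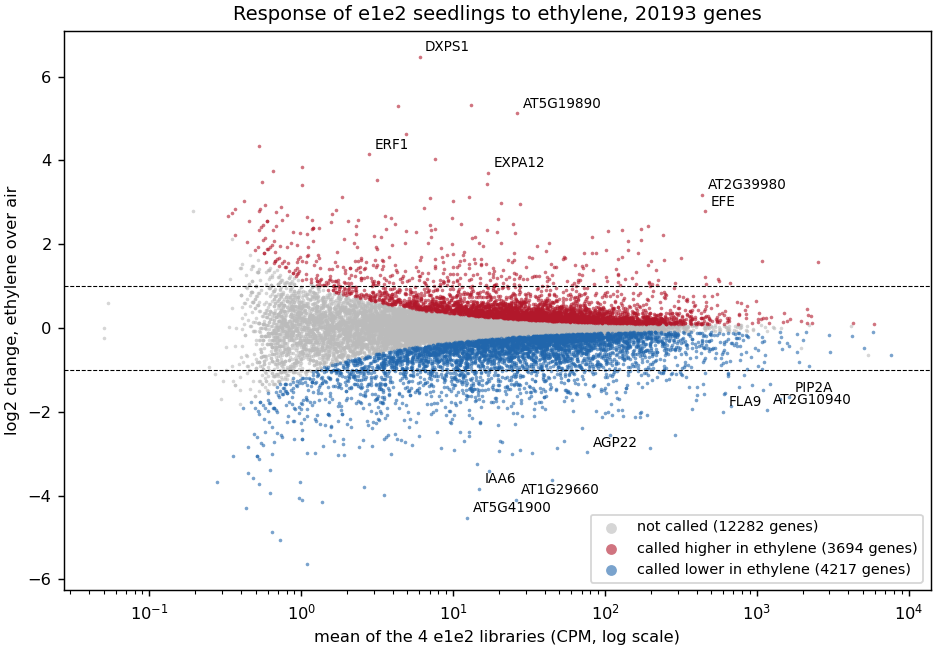
Each point is 1 of the 20193 tested genes, with the mean of the 4 e1e2 libraries in CPM on a log x axis and the log2 change, ethylene over air, on the y axis. Red points were called higher in ethylene and blue points lower at an adjusted p under 0.05, and dashed lines mark 2-fold. More genes pass the lower line (898) than the upper one (423).

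The strongest rises among well-counted genes included peroxidase, acyltransferase, expansin and SAUR-like genes. The peroxidase gene AT5G19890 (AT5G19890, chromosome 5, 6724076 to 6725966, minus strand) rose 35.02-fold, at 52.7 and 50.02 CPM in ethylene, against 1.77 and 1.18 CPM in air. AT2G39980, which encodes an acyltransferase of the HXXXD family, rose 9.09-fold and was far more abundant, at 789 and 785 CPM in ethylene, against 90.3 and 83.1 CPM in air. EXPA12, an expansin gene, read 31.5 and 31.9 CPM in ethylene, against 2.297 and 2.52 CPM in air, and the SAUR-like genes AT5G20820 and AT4G12410 rose 8.76-fold and 8.22-fold. In each of these genes both ethylene libraries lay above both air libraries by several fold. EARLI1, a gene of a lipid-transfer-like cell wall protein, had 30.4 and 30.99 CPM in ethylene, against 2.297 and 3.31 CPM in air, and it has close relatives beside it, so reads shared among them are missing from its count. The aminotransferase-like gene AT1G50110, the endoglucanase gene GH9B12, the Kunitz inhibitor gene AT1G72290, the cytochrome P450 gene CYP718 and the NPH3-family gene AT3G49970 rose 7.97-fold, 7.76-fold, 6.06-fold, 5.57-fold and 5.55-fold. DXPS1 was close to silent in air: it had 183 and 167 counts in ethylene, against 2 and 1 in air, a ratio of 95.3 (exact 95% interval 32.3 to 464), counting error only.

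Hydrolase, lipase and wall protein genes were among the strongest falls. AT5G41900, an alpha/beta-hydrolase gene, read 1.01 and 1.03 CPM in ethylene, against 23.5 and 24.03 CPM in air, a 23.1-fold fall. The GDSL-type lipase gene AT1G29660 fell 17.1-fold, at 3.3 and 2.405 CPM in ethylene, against 48.5 and 49.4 CPM in air, and its relative AT1G75900 fell 12.3-fold, at 6.47 and 7.01 CPM in ethylene, against 79.2 and 87.1 CPM in air. For these genes the ethylene and air libraries did not overlap, which adds no support to their calls. Expansin, arabinogalactan and pectin methylesterase genes with falls of like size are described below with their families. AT4G25250, for a pectin methylesterase inhibitor-like protein, fell 7.53-fold, at 2.49 and 2.27 CPM in ethylene, against 17.2 and 18.7 CPM in air. AT3G59370 and AT1G78230, to which no role is given here, fell 9.52-fold and 7.99-fold.

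Among abundant transcripts, genes for water channels and wall proteins fell. Of the 10 most abundant genes called at least 2-fold, 9 fell. PIP2A, a plasma membrane aquaporin gene, had 901 and 895 TPM in ethylene, against 2693 and 2656 TPM in air. AT2G10940, a gene of the lipid-transfer and 2S albumin family, had 479 and 456 TPM in ethylene, against 1707 and 1727 TPM in air. FLA9, a fasciclin-like arabinogalactan gene, had 387 and 351 TPM in ethylene, against 1400.0 and 1396 TPM in air. The xyloglucan endotransglucosylase gene XTH4 fell 2.59-fold, AT1G62480 (annotated as vacuolar calcium-binding protein-like) 2.97-fold, and the aquaporin genes PIP3, PIP1C, DELTA-TIP and PIP1;5 3.26-fold, 2.795-fold, 2.53-fold and 2.12-fold.

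Sequences upstream of the genes that carry the response are shown next, because EIN3 is known to bind cores with ATGTA or ATGCA and auxin response factors TGTCTC. Each is the 250 bases before the annotated gene start in RefSeq TAIR10.1, 5′ to 3′ on the strand of the gene, with matches on either strand in capitals. The motifs searched were ATGTA and ATGCA for EIN3, GCCGCC for ERF factors, CACGTG for PIF factors and TGTCTC for auxin response factors. ERF1 (chr3:8295367-8295616, plus strand), ETR2 (chr3:8254309-8254558, plus strand), AT2G39980 (chr2:16690183-16690432, minus strand) and EFE (chr1:1433011-1433260, minus strand) rose, and the Aux/IAA genes IAA6 (chr1:19673653-19673902, minus strand) and IAA19 (chr3:5263751-5264000, plus strand) fell.
ERF1: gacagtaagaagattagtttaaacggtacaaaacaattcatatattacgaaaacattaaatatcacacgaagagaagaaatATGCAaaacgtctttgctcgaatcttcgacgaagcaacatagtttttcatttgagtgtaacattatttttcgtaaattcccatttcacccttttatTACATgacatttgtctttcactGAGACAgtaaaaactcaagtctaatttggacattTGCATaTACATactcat
ETR2: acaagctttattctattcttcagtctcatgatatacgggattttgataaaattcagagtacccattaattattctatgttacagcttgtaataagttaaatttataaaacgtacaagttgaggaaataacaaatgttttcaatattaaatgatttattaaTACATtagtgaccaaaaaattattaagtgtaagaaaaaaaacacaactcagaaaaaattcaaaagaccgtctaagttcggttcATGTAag
AT2G39980: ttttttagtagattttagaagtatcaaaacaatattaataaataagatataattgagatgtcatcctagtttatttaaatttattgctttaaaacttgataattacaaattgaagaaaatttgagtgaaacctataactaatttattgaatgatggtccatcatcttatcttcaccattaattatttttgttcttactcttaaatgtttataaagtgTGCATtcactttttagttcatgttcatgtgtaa
EFE: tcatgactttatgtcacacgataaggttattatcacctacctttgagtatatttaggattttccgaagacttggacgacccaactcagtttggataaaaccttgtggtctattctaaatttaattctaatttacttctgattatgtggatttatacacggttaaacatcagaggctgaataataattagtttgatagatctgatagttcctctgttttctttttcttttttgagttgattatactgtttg
IAA6: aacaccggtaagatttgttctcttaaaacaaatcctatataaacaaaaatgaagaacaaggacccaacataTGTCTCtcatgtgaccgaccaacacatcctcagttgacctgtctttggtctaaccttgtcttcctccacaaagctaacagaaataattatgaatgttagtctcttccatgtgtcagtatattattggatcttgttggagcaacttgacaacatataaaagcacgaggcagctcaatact
IAA19: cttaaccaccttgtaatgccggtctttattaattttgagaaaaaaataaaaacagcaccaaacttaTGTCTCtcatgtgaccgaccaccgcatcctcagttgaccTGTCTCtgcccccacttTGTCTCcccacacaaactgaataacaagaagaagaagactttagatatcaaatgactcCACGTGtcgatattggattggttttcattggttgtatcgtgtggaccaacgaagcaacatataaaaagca
ERF1 held 2 matches to ATGTA, 2 to ATGCA and 1 to TGTCTC, ETR2 held 2 to ATGTA, AT2G39980 held 1 to ATGCA, and EFE held none of the 5 motifs. IAA6 held 1 match to TGTCTC and IAA19 held 3, along with 1 to CACGTG. The longest run of bases that IAA6 and IAA19 shared was taTGTCTCtcatgtgaccgacca, 23 bases that start 181 bases before the gene in IAA6 and 186 in IAA19. No other of the 20108 upstream windows searched held this run on either strand. A run of 23 bases would seldom recur in other windows whatever its role, so its absence there gives no evidence of one. The run was looked for after the windows had been seen. ATGCA occurred in 39.7% of 423 windows of genes called at least 2-fold higher and in 34.6% of 890 called at least 2-fold lower, against 28.3% of all 20108 windows. ATGTA occurred in 55.6%, 57.2% and 52.2% of the same windows in that order, and TGTCTC in 12.1%, 13.5% and 10.6%. CACGTG, the G-box bound by PIF factors, occurred in 5.91% of the windows of genes at least 2-fold higher and in 10.6% of those at least 2-fold lower, against 7.61% of all. GCCGCC, the core of the GCC box bound by ERF factors, occurred in 1.89%, 0.67% and 2.00% in the same order. Matches to ATGTA and ATGCA overlapped each other in 220 windows, and no other pair of motifs did so in more than 30. These are letter matches and were not tested as binding sites.

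The pathway itself responded at most of its steps. Of 18 perception and signalling genes, all tested, 12 rose and 2 fell. Their median log2 change was 0.40, and their summed level was 1608 and 1597 TPM in ethylene, against 1028 and 1025 TPM in air. All 5 receptor genes rose, to unequal extents. ETR2 (AT3G23150, chromosome 3, 8254559 to 8257888, plus strand) had 112 and 112 CPM in ethylene, against 32.5 and 32.6 CPM in air. ERS2 had 107 and 103 CPM in ethylene, against 37.2 and 40.02 CPM in air. ERS1 read 304 and 312 CPM in ethylene, against 139.8 and 139.9 CPM in air. ETR1 and EIN4 moved least, with log2 changes of 0.20 ± 0.06 and 0.29 ± 0.08. The call of ETR1 was lost in DESeq2 (adjusted p = 0.0648), without air library 1 (adjusted p = 0.0629) and without ethylene library 2 (adjusted p = 0.075), and that of EIN4 without air library 2 (adjusted p = 0.104) and without ethylene library 1 (adjusted p = 0.0659). RTE1, which promotes signalling by the receptor ETR1, rose 4.84-fold, at 43.3 and 41.02 CPM in ethylene, against 7.69 and 9.61 CPM in air. For ETR2, ERS2, ERS1 and RTE1, the lower ethylene library was more than 2 times the higher air library.

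Downstream of the receptors, the negative regulators also rose. CTR1 (AT5G03730, chromosome 5, 974360 to 979849, minus strand) had 307 and 314 CPM in ethylene, against 123 and 117 CPM in air. EIN2, the central activator, had 558 and 554 CPM in ethylene, against 364 and 357 CPM in air (log2 change 0.63 ± 0.04). The F-box genes EBF1 and EBF2, whose products remove EIN3 and EIL1, rose by log2 changes of 0.39 ± 0.05 and 0.85 ± 0.04, and ETP1, an F-box gene for EIN2 turnover, by 0.41 ± 0.10. EIL2, an EIN3-like gene, rose 3.01-fold. EIN3, which is controlled mainly at the protein level, read 240.5 and 239.9 CPM in ethylene, against 253 and 249.9 CPM in air and did not pass (adjusted p = 0.188), and neither did EIL3, ETP2 or XRN4. RAN1, the copper transporter that loads receptors, fell, with a log2 change of -0.23 ± 0.04. The small fall of EIL1 (log2 change -0.15 ± 0.05) was lost with library size alone (adjusted p = 0.167), with DESeq2 (adjusted p = 0.0757), without air library 1 (adjusted p = 0.118) and without either ethylene library (adjusted p = 0.0609 and 0.0618).

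**Figure D2:**
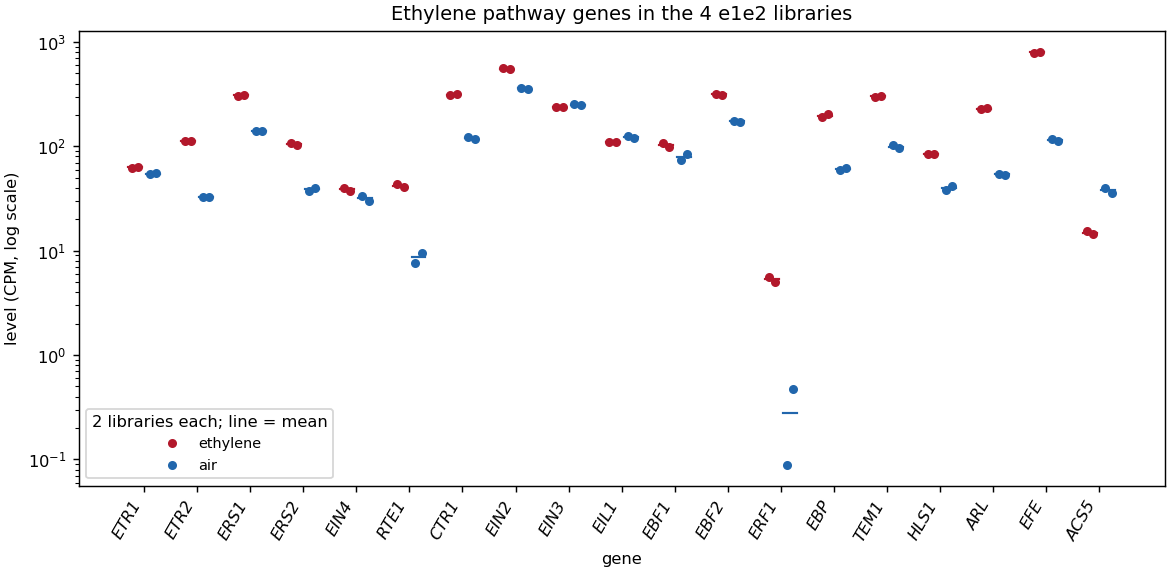
Levels of 19 genes of the ethylene pathway in CPM on a log axis, 1 point per e1e2 library and a bar at the mean of each pair, ethylene in red and air in blue. The ethylene points sit above the air points for every gene shown except EIN3, EIL1 and ACS5.

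Every one of the 11 tested ethylene response transcription factor genes passed the test, 9 higher and 2 lower. TEM1, a B3-domain repressor, had 300.4 and 307 CPM in ethylene, against 103 and 96.2 CPM in air. EBP (also called RAP2.3), a group VII ERF gene, had 192 and 203 CPM in ethylene, against 59.4 and 61.9 CPM in air, and EDF3 rose 3.21-fold. The ERF genes ERF2 and ERF11 rose 5.47-fold and 5.58-fold. ERF1, a direct EIN3 target, had 83 and 73 counts in ethylene, against 1 and 6 in air, a ratio of 18.2 (exact 95% interval 8.63 to 46.02). ORA59, which joins ethylene and jasmonate signals in defence, had 17 and 13 counts in ethylene, against 0 and 1 in air, a ratio of 24.5 (exact 95% interval 4.07 to 999.6). RAV2 and ERF5 rose by log2 changes of 0.49 ± 0.06 and 0.52 ± 0.15, and the ERF repressor gene ERF4 fell, with a log2 change of -0.62 ± 0.08. The fall of RAV1 (log2 change -0.12 ± 0.05) was lost with library size alone (adjusted p = 0.357), with DESeq2 (adjusted p = 0.112), without air library 1 (adjusted p = 0.125) and without either ethylene library (adjusted p = 0.146 and 0.0945). RAP2.2, another group VII gene, rose 2.33-fold, at 652 and 617 CPM in ethylene, against 275 and 268 CPM in air.

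Genes for hook formation and for growth restraint rose together, 6 of 7. HLS1 (AT4G37580, chromosome 4, 17658594 to 17660878, plus strand), the N-acetyltransferase-like gene without which no apical hook forms, had 84.8 and 84.3 CPM in ethylene, against 38.3 and 41.8 CPM in air. Kinase genes that direct auxin efflux in the hook rose less evenly: PID rose 2.38-fold and WAG2 by a log2 change of 0.35 ± 0.06, while WAG1 did not pass (adjusted p = 0.132), except with library size alone (adjusted p = 0.0267). The organ-size genes ARGOS, ARL and ORS1, whose products lower ethylene sensitivity, were among the most responsive genes of the pathway. ARL had 228 and 231 CPM in ethylene, against 54.9 and 53.5 CPM in air. ARGOS had 155 and 164 CPM in ethylene, against 43.1 and 43.96 CPM in air, and ORS1 had 125 and 124 counts in ethylene, against 3 and 2 in air, a ratio of 40.7 (exact 95% interval 17.2 to 126). None of the 3 showed any overlap between ethylene and air, which holds for each called gene described with its values here.

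Ethylene synthesis genes split by step. ACC synthases make the precursor ACC, and ACC oxidases turn it into ethylene. Among ACC synthase genes, ACS5 (15.3 and 14.4 CPM in ethylene, against 40.02 and 35.6 CPM in air), ACS6 (log2 change -1.35 ± 0.11), ACS2 (-0.86 ± 0.19) and ACS8 fell, the last with 9 and 4 counts in ethylene, against 23 and 47 in air. The fall of ACS7 was lost in DESeq2 (adjusted p = 0.171) and with library size alone (adjusted p = 0.0673). It was also lost without the filter on low counts (adjusted p = 0.0523). The call was lost too without air library 2 (log2 change -0.49) or either ethylene library (-0.68 and -0.55). Neither ACS9 nor ACS11 passed. Among ACC oxidase genes, EFE (also called ACO4, AT1G05010, chromosome 1, 1431177 to 1433010, minus strand) had 785 and 804 CPM in ethylene, against 118 and 114 CPM in air, a 6.88-fold rise. ACO1 rose 3.103-fold and AT1G77330 by a log2 change of 0.65 ± 0.04. The fall of AT1G12010 (log2 change -0.43 ± 0.18) was lost in DESeq2 (adjusted p = 0.208) and with library size alone (adjusted p = 0.0854). It was also lost without air library 2 (log2 change -0.25) or ethylene library 2 (-0.18). The methionine and Yang cycle, which supplies methionine and recycles its methylthio group, moved little: 8 of 17 rose and 2 fell (median log2 change 0.13). MTK, for the methylthioribose kinase of the recycling arm, rose by a log2 change of 0.36 ± 0.08, and the S-adenosylmethionine synthetase gene SAM-2 by 0.33 ± 0.03. Another synthetase gene, SAM1, fell, with a log2 change of -0.16 ± 0.04.

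Auxin genes changed at synthesis, transport and response. Auxin is made from tryptophan by TAA1-type aminotransferases and YUCCA oxygenases, moved by PIN exporters and AUX1-type importers, and inactivated by GH3 enzymes. In synthesis, YUC9 had 7.004 and 6.18 CPM in ethylene, against 2.74 and 2.84 CPM in air. TAR2 had 13.9 and 10.9 CPM in ethylene, against 6.45 and 6.62 CPM in air, and TAA1 rose by a log2 change of 0.26 ± 0.07. The anthranilate synthase gene ASA1 rose by a log2 change of 0.35 ± 0.10, lost without air library 2 (adjusted p = 0.0972) or ethylene library 1 (adjusted p = 0.0594). YUC7 had 25 and 32 counts in ethylene, against 1 and 10 in air, a ratio of 4.23 (exact 95% interval 2.197 to 8.95), and missed the threshold without air library 1 (adjusted p = 0.0511). YUC8 fell, at 8.08 and 7.76 CPM in ethylene, against 12.6 and 12.1 CPM in air, so members of the same enzyme family moved in opposite directions. In transport and conjugation, 12 of 17 tested genes fell and 1 rose (2 with library size alone). The exporter gene PIN3 fell, at 154 and 154 CPM in ethylene, against 219 and 223 CPM in air. The importer genes LAX2 and AUX1 fell too, with log2 changes of -1.30 ± 0.12 and -0.39 ± 0.04. GH3.17 fell 2.91-fold, at 30.4 and 35.5 CPM in ethylene, against 95.9 and 95.9 CPM in air, and GH3.1 fell 3.18-fold. The exception was BRU6, another GH3 gene, with 53.7 and 54.3 CPM in ethylene, against 37.7 and 33.01 CPM in air.

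Early auxin response genes fell more often than they rose. Of 64 tested SAUR genes, small auxin-induced genes tied to cell expansion, 36 fell and 10 rose (median log2 change -0.77). AT4G34760 had 8.96 and 9.001 CPM in ethylene, against 27.6 and 29.4 CPM in air. AT5G18030 had 5.25 and 5.77 CPM in ethylene, against 14.9 and 17.02 CPM in air. Against that trend, AT5G20820 had 23.03 and 22.3 CPM in ethylene, against 2.83 and 2.36 CPM in air. AT4G12410 had 18.1 and 17.6 CPM in ethylene, against 2.03 and 2.28 CPM in air. Among 27 tested Aux/IAA repressor genes, 10 fell and 7 rose. IAA6 read 2.02 and 1.86 CPM in ethylene, against 25.4 and 30.3 CPM in air. IAA19 had 38.2 and 39.99 CPM in ethylene, against 161 and 158 CPM in air. Whether the run of bases shared upstream of IAA6 and IAA19 bears on their fall was not tested. The Aux/IAA genes IAA28 and ATAUX2-11 rose, with 31.5 and 33.05 CPM in ethylene, against 19.5 and 17.8 CPM in air for IAA28 and 166 and 170.2 CPM in ethylene, against 134 and 132 CPM in air for ATAUX2-11.

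Brassinosteroid genes fell in the synthesis steps. Brassinosteroids promote hypocotyl elongation in the dark, and DWF4 and BR6OX1 encode P450 enzymes of their synthesis. Of 22 tested genes, 13 fell and 2 rose. DWF4 had 17.1 and 15.9 CPM in ethylene, against 46.3 and 49.3 CPM in air, and BR6OX1 fell 3.07-fold. DWF1 and CPD fell by smaller steps, with log2 changes of -0.37 ± 0.03 and -0.30 ± 0.04, and the receptor gene BRI1 fell likewise (-0.23 ± 0.04). PRE1, a growth-promoting helix-loop-helix gene, fell 2.75-fold. The brassinosteroid-induced genes BEE3 and BEE1 rose, with 27.9 and 29.5 CPM in ethylene, against 12.3 and 14.8 CPM in air for BEE3 and 20.4 and 24.7 CPM in ethylene, against 14.8 and 15.8 CPM in air for BEE1. The regulator gene BZR1 did not pass.

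Gibberellin genes fell in 9 of 23 cases and rose in 3. GA3OX1, which makes the active hormone, had 16.2 and 17.5 CPM in ethylene, against 35.2 and 40.9 CPM in air, and GA20OX1 fell, with a log2 change of -0.88 ± 0.14. The early enzyme gene GA3 rose by a log2 change of 0.48 ± 0.07. Among DELLA repressor genes, RGL1 had 22.8 and 28.2 CPM in ethylene, against 45.1 and 42.5 CPM in air, and RGL2, RGL3, GAI and RGA1 fell, with log2 changes of -0.60 ± 0.14, -0.90 ± 0.11, -0.48 ± 0.06 and -0.18 ± 0.04. The receptor gene GID1C rose, at 43.5 and 46.2 CPM in ethylene, against 31.1 and 29.3 CPM in air. Cytokinin genes showed no common direction, with 5 of 23 higher (9 with library size alone) and 6 lower (3 in DESeq2 and without air library 1), near the 18.3% and 20.9% of all genes. RR16, a type-A response regulator, had 10.8 and 12.5 CPM in ethylene, against 2.03 and 3.07 CPM in air. ARR3 had 20.1 and 23.6 CPM in ethylene, against 10.9 and 10.7 CPM in air, and ARR7 rose 2.197-fold, whereas ARR6 and the oxidase gene CKX5 fell, with log2 changes of -0.50 ± 0.13 and -0.72 ± 0.14.

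Abscisic acid genes divided evenly, with 10 of 26 higher and 10 lower. The response marker LTI78 rose, at 1002 and 1019.7 CPM in ethylene, against 706 and 692 CPM in air, and so did the phosphatase gene ABI1, at 415 and 402 CPM in ethylene, against 244 and 248 CPM in air. HAI1, a phosphatase gene of the same clade, fell, at 14.1 and 15.9 CPM in ethylene, against 36.5 and 40.7 CPM in air. The transcription factor gene ABF3 fell, with a log2 change of -0.51 ± 0.04, and so did ABA1, an enzyme of abscisic acid synthesis (-0.25 ± 0.05). CYP707A2, which breaks the hormone down, rose 2.595-fold.

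Regulators of growth in darkness moved in both directions. PIF factors promote hypocotyl elongation and keep seedlings etiolated, and PIF3 is a known EIN3 target. Of 34 tested genes, 15 fell and 8 rose. PIF3 (AT1G09530, chromosome 1, 3075768 to 3079654, plus strand) had 272 and 279 CPM in ethylene, against 132 and 133 CPM in air. PIF4 had 20.3 and 18.9 CPM in ethylene, against 53.7 and 59.2 CPM in air. The PIF genes PIL5 (PIF1) and PIL6 (PIF5) fell, with log2 changes of -0.50 ± 0.07 and -0.35 ± 0.08. PAR2, a shade-induced repressor of elongation, fell 3.11-fold, and the shade-induced homeodomain genes HB4 and HB-2 fell 2.56-fold and 2.41-fold. Photoreceptor genes PHYA, PHYB and CRY1 did not pass, and neither did the ubiquitin ligase gene COP1. LZF1, a light-regulated B-box gene, rose by a log2 change of 0.52 ± 0.09.

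Clock genes fell without exception among those called, 16 of 24. TCP11 (AT5G08330, also known as CHE), a repressor of CCA1, had 17.8 and 15.6 CPM in ethylene, against 56.5 and 57.5 CPM in air. The MYB-like gene EPR1 (AT1G18330) had 14.5 and 13.9 CPM in ethylene, against 32.6 and 34.9 CPM in air. The morning genes CCA1 and LHY fell, with log2 changes of -0.75 ± 0.08 and -0.77 ± 0.08. PRR5, PRR7 and GI fell, with log2 changes of -0.48 ± 0.14, -0.27 ± 0.06 and -0.29 ± 0.06, while TOC1, ELF3 and ZTL did not pass. Levels of clock genes depend on the time of harvest, which the labels do not give for either group.

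Genes of the light-harvesting antenna fell, 15 of 18, with a median log2 change of -0.32. LHCB2.3 had 25.7 and 25.1 CPM in ethylene, against 70.2 and 68.6 CPM in air, and LHCB2.1 had 110.5 and 107 CPM in ethylene, against 212 and 196 CPM in air. Close copies in this family lose reads that map to several places, from single members and from the sum alike. The sum was 14044 and 13887 TPM in ethylene, against 16009 and 15545 TPM in air. Glk-type activators of these genes fell too, with log2 changes of -0.86 ± 0.08 for GLK2 and -0.50 ± 0.12 for GPRI1 (GLK1). PORA and PORB, which hold protochlorophyllide in etioplasts, rose, with 1766 and 1764 CPM in ethylene, against 1576 and 1456 CPM in air for PORA, and 2507 and 2508 CPM in ethylene, against 2086 and 2016 CPM in air for PORB. Of 78 tested genes encoded in the plastid, 15 fell, 4 rose and 59 did not pass, so falls were near the 20.9% of all genes and rises below the 18.3%. The number that rose was unstable, at 1 in DESeq2, 2 without air library 1 or ethylene library 2, 8 with library size alone and 11 without air library 2. Most plastid transcripts carry no long poly(A) tail, and how evenly these libraries captured them was not tested. Their sums overlapped between the groups (6311 and 7014 TPM in ethylene, against 5494 and 6979.8 TPM in air). None of 6 tested mitochondrion-encoded genes passed.

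Water channels, which carry water for cell expansion, fell as a family. Of 28 tested aquaporin genes, 21 fell and 3 rose (median log2 change -0.48). Together they held 19841 and 19605 TPM in ethylene, against 31773 and 30982 TPM in air. Among plasma membrane channels, PIP2A (AT3G53420, chromosome 3, 19803473 to 19805730, minus strand) had 789 and 784 CPM in ethylene, against 2496 and 2444 CPM in air. PIP3 had 677 and 649 CPM in ethylene, against 2201 and 2121 CPM in air, and PIP2E had 155 and 156 CPM in ethylene, against 605 and 583 CPM in air. Tonoplast channels followed, with 692 and 678 CPM in ethylene, against 1776 and 1690.2 CPM in air for DELTA-TIP and a log2 change of -0.34 ± 0.03 for GAMMA-TIP. The 3 that rose were of the NIP class, which passes boron and other small solutes: NIP5;1 had 55.4 and 51.05 CPM in ethylene, against 24.8 and 31.8 CPM in air, NIP6;1 had 14.7 and 12.4 CPM in ethylene, against 8.39 and 7.25 CPM in air, and NIP3;1 rose by a log2 change of 0.65 ± 0.22, a call lost in DESeq2 (adjusted p = 0.0979) and without air library 2 (adjusted p = 0.114) or ethylene library 2 (adjusted p = 0.105). In whole seedlings, fewer cells of a type and less RNA per cell cannot be told apart.

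Tubulin genes fell with few exceptions, 14 of 15, and none rose. TUB8 had 108 and 105 CPM in ethylene, against 212 and 189.6 CPM in air. TUA3 had 466 and 465 CPM in ethylene, against 729.6 and 704 CPM in air. The 15 genes summed to 4838 and 4727 TPM in ethylene, against 6194 and 5905 TPM in air. TUB2 was the 1 that did not pass. Cellulose synthesis genes moved by less, with 7 of 14 lower and 1 higher. CESA6, a subunit of the primary-wall complex, had 367 and 372 CPM in ethylene, against 498 and 475 CPM in air, CESA1 fell, with a log2 change of -0.14 ± 0.03, and so did the chitinase-like gene POM1 (-0.23 ± 0.03). CESA2 rose by a log2 change of 0.21 ± 0.05, and the third primary-wall subunit, CEV1 (CESA3), did not pass, except as higher with library size alone (adjusted p = 0.00033) and without air library 1 (adjusted p = 0.0233).

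Wall-loosening families split in different ways. Expansins, which loosen the wall under acid conditions, fell in 18 of 24 cases and rose in 3. EXPA8 had 70.8 and 67.8 CPM in ethylene, against 279 and 277 CPM in air. EXPA5 had 2.96 and 2.89 CPM in ethylene, against 29.5 and 33.2 CPM in air, and EXPB1 had 7.34 and 5.57 CPM in ethylene, against 49.6 and 48.1 CPM in air. The rises were EXPA12 and the root-hair genes EXPA7 (35.8 and 30.4 CPM in ethylene, against 23.7 and 21.9 CPM in air) and EXPA18 (log2 change 0.39 ± 0.10, lost without ethylene library 1 at an adjusted p = 0.0656). Xyloglucan endotransglucosylase (XTH) genes divided, with 11 of 28 higher and 12 lower. XTH4 had 508 and 518 CPM in ethylene, against 1347 and 1309 CPM in air. XTH17 had 165 and 164 CPM in ethylene, against 319.8 and 330.1 CPM in air, whereas XTH31 had 392 and 393 CPM in ethylene, against 176 and 195 CPM in air. XTH7 had 111 and 108 CPM in ethylene, against 39.4 and 38.5 CPM in air. Their summed level was 4622 and 4603 TPM in ethylene, against 5010.1 and 5015 TPM in air. Of 11 pectin methylesterase genes, 7 fell and 2 rose. PME2 had 48.4 and 39.7 CPM in ethylene, against 101 and 94.5 CPM in air. PME61 had 4.65 and 4.67 CPM in ethylene, against 36.4 and 34.6 CPM in air.

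Wall glycoproteins fell strongly. Of 26 tested arabinogalactan protein genes, 20 fell and 1 rose (median log2 change -0.76). AGP9 had 249 and 246 CPM in ethylene, against 621 and 637 CPM in air. AGP22 had 18.9 and 15.7 CPM in ethylene, against 125 and 145 CPM in air. The rise, in AGP17, was of few counts and was lost in DESeq2 (adjusted p = 0.193), without either air library (adjusted p = 0.169 and 0.0863) and without ethylene library 1 (adjusted p = 0.706). Among 16 fasciclin-like members, 11 fell and 2 rose (1 without air library 1 or ethylene library 2). FLA9 had 251 and 227 CPM in ethylene, against 960.1 and 951 CPM in air. FLA2 had 203 and 188 CPM in ethylene, against 516 and 512 CPM in air, while FLA6 rose, at 17.6 and 18.6 CPM in ethylene, against 7.95 and 8.04 CPM in air. The fasciclin-like genes summed to 1329 and 1282 TPM in ethylene, against 2976 and 2969 TPM in air.

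**Figure D3:**
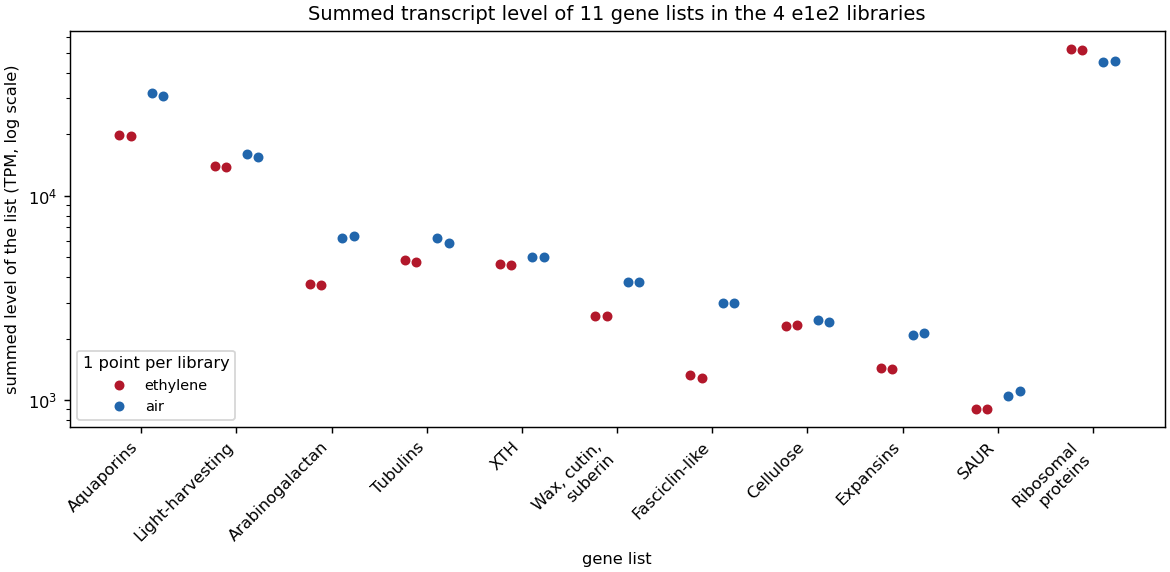
Summed transcript level of 11 gene lists in TPM on a log axis, 1 point per e1e2 library, ethylene in red and air in blue. Both ethylene points lie below both air points for 10 of the lists, from aquaporins to SAUR genes, and above them for ribosomal proteins.

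Surface lipid genes fell almost throughout, 25 of 31, with a median log2 change of -0.82. Wax and cutin cover the shoot epidermis, and suberin lines root endodermis and periderm. KCS6, a fatty acid elongase gene for wax, had 447 and 457 CPM in ethylene, against 813 and 782 CPM in air. The cutin gene GPAT8 had 40.005 and 39.6 CPM in ethylene, against 81.4 and 79.2 CPM in air. The lipid-transfer gene LTPG1 had 159 and 155 CPM in ethylene, against 318 and 335 CPM in air, and LTPG2 had 47.6 and 49.4 CPM in ethylene, against 175 and 165 CPM in air. The P450 genes CYP86A2 and CYP86A1, for cutin and suberin monomers, fell 3.91-fold and 2.12-fold. Suberin genes included exceptions: FAR4 and FAR5 fell, with log2 changes of -1.12 ± 0.20 and -1.51 ± 0.13, while FAR1 rose, at 352 and 361 CPM in ethylene, against 259 and 251 CPM in air. KCS2 rose, at 61.6 and 58.6 CPM in ethylene, against 37.9 and 47.6 CPM in air. In edgeR with all libraries, 9 of 9 glycerol-3-phosphate acyltransferase genes fell, a group picked after the values were seen. That count was 6 in DESeq2, 7 with library size alone and 7 or 8 without 1 of the e1e2 libraries. Its median log2 change was -1.01, and GPAT3 had 36.9 and 33.9 CPM in ethylene, against 157 and 153 CPM in air. By the same later choice, 30 of 55 tested GDSL lipase genes fell and 6 rose, and AT3G16370 had 294 and 282 CPM in ethylene, against 1052 and 1057 CPM in air. Likewise 30 of 55 lipid-transfer and 2S albumin family genes fell and 9 rose. LTP5 rose, at 365 and 367 CPM in ethylene, against 116 and 123 CPM in air. Of the 5 CASP genes, whose products assemble the Casparian strip of the endodermis, 4 fell and none rose (3 lower with library size alone and without air library 2 or ethylene library 1). CASP5 had 93.5 and 97.4 CPM in ethylene, against 205 and 187 CPM in air, and CASP4 fell, with a log2 change of -0.37 ± 0.07. CASP1 did not pass, and neither did MYB36, the endodermal regulator.

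The 2 isoprenoid routes moved apart. The cytosolic mevalonate route leads to sterols, and the plastid MEP route to carotenoids and chlorophyll side chains. Of 7 mevalonate and sterol genes, 6 fell and none rose (1 with library size alone). HMG1, the committed enzyme, had 421 and 403 CPM in ethylene, against 892 and 877 CPM in air. HMGS had 51.5 and 48.03 CPM in ethylene, against 141 and 135 CPM in air. Squalene synthase gene SQS1 and sterol methyltransferase gene SMT1 fell, with log2 changes of -0.45 ± 0.05 and -0.55 ± 0.05. Of 17 MEP and carotenoid genes, 7 rose and 1 fell. CLA1, the main entry enzyme of the plastid route, had 539 and 512 CPM in ethylene, against 396 and 372 CPM in air, and PSY, the entry to carotenoids, rose by a log2 change of 0.32 ± 0.06. Plastid fatty acid synthesis showed 5 of 11 higher (3 without ethylene library 1) and 1 lower, against 18.3% and 20.9% of all genes. BCCP2 rose, at 82.97 and 86.02 CPM in ethylene, against 50.4 and 49.2 CPM in air. The gene that fell, the thioesterase gene FaTA, had 11.9 and 13.1 CPM in ethylene, against 22.9 and 22.5 CPM in air.

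Mitotic genes fell while DNA replication genes stayed near the background. Of 20 tested genes of mitosis and cytokinesis, 13 fell and none rose, with a median log2 change of -0.56 (7 fell without ethylene library 2). The kinesin gene HIK had 5.86 and 6.46 CPM in ethylene, against 12.3 and 10.3 CPM in air, and CDC20.1 had 8.28 and 7.21 CPM in ethylene, against 13.96 and 14.3 CPM in air. The B-type kinase genes CDKB1;1 and CDKB1;2 passed narrowly, with log2 changes of -0.46 ± 0.19 and -0.76 ± 0.32. Neither passed in DESeq2 (adjusted p = 0.19 and 0.176) or with library size alone (adjusted p = 0.0906 and 0.0654). Both calls were also lost without any 1 of the 4 e1e2 libraries. Of 12 S-phase genes, PCNA1 and PCNA2 fell, with log2 changes of -0.49 ± 0.16 and -0.53 ± 0.13, and the other 10, MCM subunits among them, did not pass. The call of PCNA1 was lost in DESeq2 (adjusted p = 0.0878) and without ethylene library 2 (adjusted p = 0.212). KRP2, a cyclin-kinase inhibitor, had 19.9 and 20.7 CPM in ethylene, against 35.1 and 33.5 CPM in air, and CYCD1;1 had 30.9 and 27.9 CPM in ethylene, against 47.8 and 48.5 CPM in air. Among 20 core histone genes, 10 fell and 1 rose (2 with library size alone), all by less than 2-fold. HTB4 had 161 and 164 CPM in ethylene, against 187 and 193 CPM in air. The replication-independent variant gene HTA9 had 129.6 and 118 CPM in ethylene, against 147 and 158 CPM in air. Copies of histone genes are close to identical, and their reads are only partly counted.

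Ribosomal protein genes, a group picked after the values were seen, rose by small amounts. Of 317 tested, 134 rose and 3 fell, against 18.3% and 20.9% of all genes, with a median log2 change of 0.14. DESeq2 called 72 of them higher, and 84 were called without ethylene library 1. ATL5 (ribosomal protein L5) had 379.6 and 387 CPM in ethylene, against 309.7 and 302 CPM in air. RPL18AA fell, at 42.1 and 42.5 CPM in ethylene, against 52.2 and 54.4 CPM in air. Together they held 52285 and 52111 TPM in ethylene, against 45421 and 45649 TPM in air. Folding genes of the endoplasmic reticulum went the other way, with 8 of 10 lower and 1 higher (5 lower with library size alone and without air library 1 or ethylene library 1, and none higher in DESeq2 or without those same libraries). BIP2 had 175 and 169.9 CPM in ethylene, against 221 and 222 CPM in air. CNX1 had 174 and 167 CPM in ethylene, against 230.5 and 225 CPM in air.

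**Figure D4:**
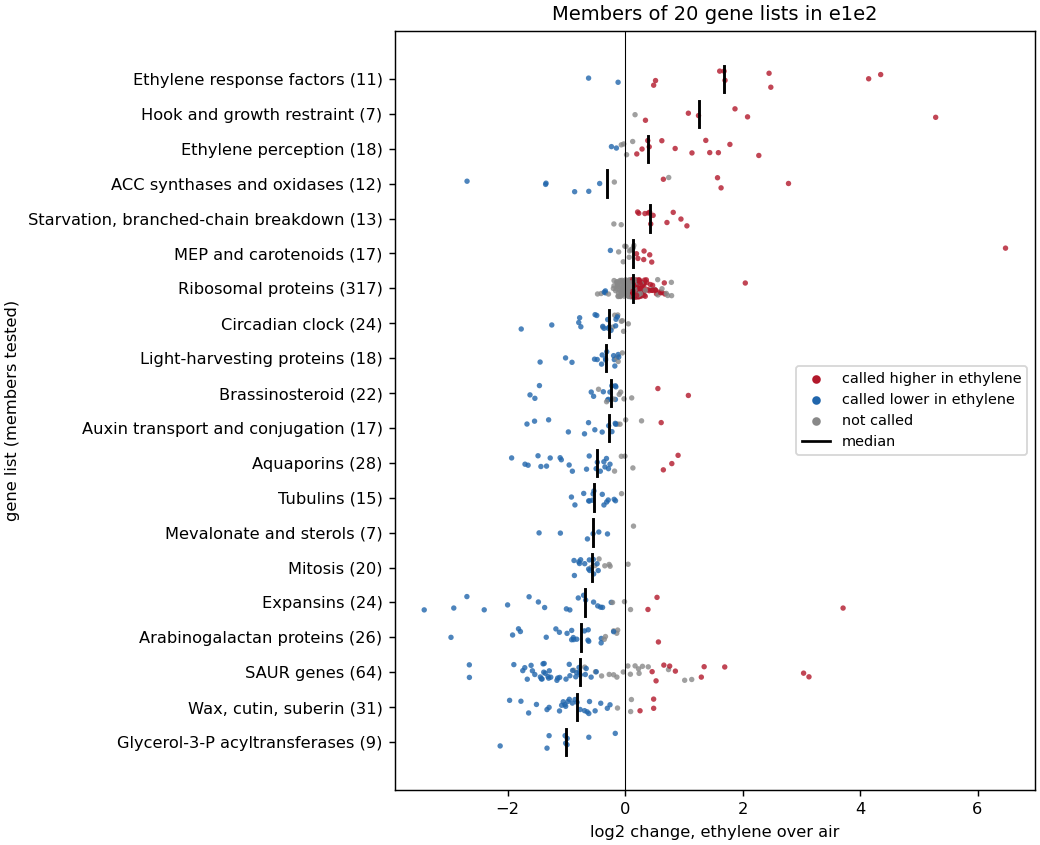
Log2 change, ethylene over air, of each tested member of 20 gene lists in e1e2, with red for members called higher, blue for members called lower and a black bar at the median. Medians run from -1.01 in the glycerol-3-phosphate acyltransferases to 1.68 in the ethylene response factors, and the number of members tested stands in brackets.

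Catabolic genes of the branched-chain amino acids rose together. Of 13 genes of sugar starvation and branched-chain breakdown, 11 rose and none fell. IVD, isovaleryl-CoA dehydrogenase, had 373 and 377 CPM in ethylene, against 199.6 and 189 CPM in air. AT1G21400, for the E1 subunit of the branched-chain keto acid dehydrogenase, a complex related to PDC, had 114 and 112 CPM in ethylene, against 55.4 and 53.97 CPM in air, and BCAT-2, the first aminotransferase of the route, rose 1.64-fold. The E2 gene of the same complex, BCE2, rose by a log2 change of 0.44 ± 0.06, and the subunits MCCA and MCCB of methylcrotonyl-CoA carboxylase by 0.42 ± 0.04 and 0.21 ± 0.05. ASN1, an asparagine synthase induced by low sugar, had 716 and 685 CPM in ethylene, against 548 and 517 CPM in air.

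Genes of storage-oil breakdown showed 8 of 20 higher and 4 lower (5 higher in DESeq2 and without either ethylene library, and 4 without air library 2). ACX1, a peroxisomal acyl-CoA oxidase, had 623 and 638 CPM in ethylene, against 379.8 and 369 CPM in air. MLS, a glyoxylate cycle enzyme, and PCK1, which starts the return to sugars, fell, with 607 and 585 CPM in ethylene, against 781 and 759 CPM in air for MLS and 1217 and 1266 CPM in ethylene, against 1609.6 and 1527 CPM in air for PCK1. ICL, the partner of MLS in the same cycle, was near its air level at 5582 and 5651 CPM in ethylene, against 6090.0 and 5848 CPM in air. Its small fall was lost with library size alone (adjusted p = 0.563), without air library 1 (adjusted p = 0.117) and without either ethylene library (adjusted p = 0.19 and 0.113). In sugar use, CINV1, a cytosolic invertase, had 174 and 171 CPM in ethylene, against 303 and 273 CPM in air. The sugar transporter gene MSS1 had 93.1 and 94.6 CPM in ethylene, against 131 and 119 CPM in air. GAPC1 rose, at 941 and 901 CPM in ethylene, against 804 and 746 CPM in air. The glycolysis list held 7 of 15 higher and 5 lower, but 2 higher in DESeq2 and without ethylene library 1, 3 higher without air library 2, and 3 lower with library size alone.

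Mineral nutrition genes moved singly. Of 25 iron genes, 7 rose and 4 fell (2 in DESeq2 and without ethylene library 2), against 18.3% higher and 20.9% lower among all genes. NAS2, for a nicotianamine synthase, had 22.8 and 23.1 CPM in ethylene, against 8.66 and 6.15 CPM in air. The root iron importer gene IRT1 had 64.3 and 67.5 CPM in ethylene, against 41.6 and 39.2 CPM in air. The reductase gene FRO2, which acts before IRT1, rose by a log2 change of 0.42 ± 0.12, just missed in DESeq2 (adjusted p = 0.0531). VIT1, the vacuolar iron importer, fell, at 1.48 and 1.58 CPM in ethylene, against 5.57 and 4.96 CPM in air. Among nitrogen, phosphate, sulfate and potassium genes, 5 of 22 rose and 7 fell. The nitrate transporter gene NRT1.1 had 536 and 540.1 CPM in ethylene, against 709 and 651 CPM in air, and NRT2:1 fell 2.33-fold. APR3, in sulfate assimilation, had 121 and 117 CPM in ethylene, against 72.8 and 69.02 CPM in air. NIA2, a nitrate reductase, had 504 and 504 CPM in ethylene, against 428 and 398 CPM in air.

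Root hair genes rose, 6 of 9, with 1 lower (5 higher in DESeq2 and 7 with library size alone). Ethylene is a known promoter of root hairs. PRP1, a root hair wall protein, had 68.1 and 57.9 CPM in ethylene, against 27.4 and 25.3 CPM in air, and RSL4, the helix-loop-helix factor that sets hair length, rose 2.15-fold. RHD2, the NADPH oxidase gene of hair tips, fell, with a log2 change of -0.30 ± 0.09, a call lost without air library 1 (adjusted p = 0.0869) and without ethylene library 1 (adjusted p = 0.0606).

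Of 8 tested pathogenesis and camalexin genes, 5 fell and 1 rose. CYP79B3, which turns tryptophan into an indole precursor of glucosinolates and camalexin, had 31.5 and 31.3 CPM in ethylene, against 186 and 181 CPM in air. CYP83B1, in indole glucosinolate synthesis, had 89.3 and 87.3 CPM in ethylene, against 201 and 185 CPM in air. MYB34, the activator of that route, had 29.6 and 29.9 CPM in ethylene, against 90.1 and 85.4 CPM in air. PR4, an ethylene-responsive chitin-binding gene, rose, at 206 and 210.0 CPM in ethylene, against 119.7 and 123 CPM in air. PR1, PR5, BGL2 and PDF1.2 had too few counts to be tested. Of 32 tested glutathione transferases, 13 rose and 5 fell. GSTU3, whose air libraries held few counts, rose: it had 139 and 138 counts in ethylene, against 3 and 6 in air, a ratio of 25.1 (exact 95% interval 13.1 to 55.6). GSTU4 had 18.9 and 17.7 CPM in ethylene, against 4.86 and 5.59 CPM in air. GSTU26 fell, at 41.8 and 46.6 CPM in ethylene, against 82.6 and 81.3 CPM in air. In phenylpropanoid and lignin synthesis, 11 of 20 genes fell and 2 rose (1 in DESeq2 and without air library 2 or either ethylene library). FAH1 had 4.65 and 3.92 CPM in ethylene, against 12.4 and 12.4 CPM in air. HCT had 162 and 168 CPM in ethylene, against 246 and 229 CPM in air, and CCoAOMT1 rose, at 635 and 627 CPM in ethylene, against 514 and 480.3 CPM in air. None of 7 tested flavonoid genes passed. Peroxidases, grouped by annotated product after the values were seen, showed 14 of 52 higher and 23 lower. AT1G49570 rose, at 219.6 and 213 CPM in ethylene, against 46.7 and 39.1 CPM in air. AT2G37130 fell, at 833 and 843 CPM in ethylene, against 1216 and 1178 CPM in air.

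Transcription factor families held called genes in both directions. Of 52 AP2/ERF genes, 20 rose and 10 fell (6 in DESeq2). Of 70 NAC genes, 13 rose (7 in DESeq2) and 8 fell, shares near or below the 18.3% and 20.9% of all genes. NAC6 (also called ORE1), a regulator of senescence, had 37.2 and 38.5 CPM in ethylene, against 12.01 and 12.6 CPM in air. Of 57 WRKY genes, 8 rose and 7 fell (4 in DESeq2 and without ethylene library 1), both below the shares of all genes. WRKY45 rose, at 16.7 and 15.7 CPM in ethylene, against 6.01 and 5.44 CPM in air. Homeodomain genes fell in 19 of 45 cases and rose in 8. HB52 rose, at 176 and 168 CPM in ethylene, against 70.9 and 69.1 CPM in air. HB-3 fell, at 24.6 and 23.8 CPM in ethylene, against 57.7 and 57.4 CPM in air. Of 81 MYB genes, 27 fell and 17 rose (11 in DESeq2 and without air library 1 or ethylene library 2). MYB27 rose, at 69.6 and 70.3 CPM in ethylene, against 23.8 and 27.1 CPM in air. The cold regulator gene DREB1A and the MYB genes LAF1 (MYB18) and MYB19 fell, all with few counts. DREB1A had 1 and 2 counts in ethylene, against 11 and 11 in air, 8.98 (exact 95% interval 2.698 to 46.9) times more in air.

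A deposited table lists 1242 genes whose ethylene response in wild type, given as a log2 change, was at least 2-fold in each case, so it could be asked how those genes behaved in e1e2. The genes were chosen on wild-type values, so changes nearer to 0 in any other set of samples can follow from that choice alone, and no test was made of the difference. Of 472 tested genes that are higher with ethylene in wild type in the authors' deposited table, 320 rose in e1e2 (67.8%, against 18.3% of all genes), 25 fell and 127 did not pass. Of 718 lower with ethylene in wild type, 592 fell (82.5%, against 20.9% of all genes), 11 rose and 115 did not pass. The median log2 change of the 472 was 1.49 in wild type and 0.947 in e1e2, both from the authors' deposited table, and that of the 718 was -1.45 in wild type and -1.03 in e1e2. Among the 1321 genes called at least 2-fold in e1e2, 597 are in this table, against 1190 of all 20193 tested genes.

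**Figure D5:**
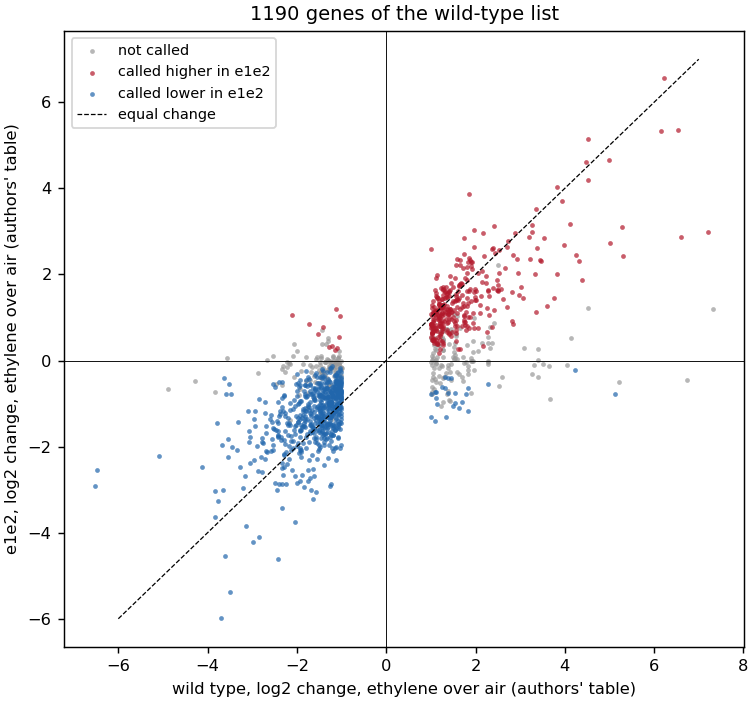
Log2 change, ethylene over air, in wild type on the x axis and in e1e2 on the y axis, both as in the authors' deposited table, for 1190 genes that the authors selected on wild type. Points are coloured by their call in e1e2, and most lie in the quadrants of equal sign, more of them below the dashed line of equal change than above it on the side of wild-type rises.

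For the largest wild-type changes, the e1e2 values ranged widely. DXPS1, not among the 5 largest wild-type rises, had a log2 change of 6.57 in e1e2 and 6.22 in wild type in the authors' deposited table. AT5G40590, a C1-domain gene among those 5, had 5.35 in e1e2 and 6.54 in wild type in the authors' deposited table. The rest of the 5, apart from CYP702A2 below, had few counts in e1e2. Their log2 changes were 1.2, 2.99 and 2.87 in e1e2, against 7.32, 7.21 and 6.6 in wild type, in the authors' deposited table. There, the pectin lyase-like gene AT1G60590 had -2.23 in e1e2 and -5.10 in wild type. Its e1e2 libraries held few counts, 8 and 5 in ethylene, against 20 and 30 in air. The authors' deposited table gives the inhibitor-like gene AT4G25250 -2.92 in e1e2 and -6.52 in wild type. CYP702A2 did not pass in e1e2, with 12 and 19 counts in ethylene, against 14 and 21 in air, where the authors' deposited table has -0.46 in e1e2 and 6.74 in wild type. Opposite directions were few, 25 genes higher and 11 lower in wild type. Many of the 25 are encoded in the plastid, and how evenly these libraries captured such transcripts was not tested. PGAZAT, a polygalacturonase gene of cell separation, had 21.1 and 22.7 CPM in ethylene, against 37.5 and 37.1 CPM in air, where the authors' deposited table gives log2 changes of -0.77 in e1e2 and 5.13 in wild type. The seed storage gene CRA1 fell, at 941 and 822 CPM in ethylene, against 1328 and 1425 CPM in air, where the authors' deposited table has -0.64 in e1e2 and 1.84 in wild type, and PAP85 and OLEO4, also of seed reserves, fell in e1e2 as well. Without air library 2, CRA1 missed the threshold (adjusted p = 0.0508). Among genes lower in wild type, ELIP2, an early light-induced gene, had 12.5 and 17.2 CPM in ethylene, against 8.304 and 5.99 CPM in air. ADH1, an alcohol dehydrogenase of low oxygen, had 24.4 and 25.5 CPM in ethylene, against 11.6 and 12.8 CPM in air. 

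The responses of the lines differed by test at a small share of genes. Of the 1321 genes called at least 2-fold in e1e2, 1121 were also called in the same direction in e2e3. The share of all tested genes called in e2e3 is not given here to read this against. The difference of responses, e1e2 minus e2e3, passed the test for 566 of 20193 genes (2.80%), 256 with e1e2 above (1.27%) and 310 below (1.54%). The antenna list stood out by count: 16 of 18 light-harvesting genes had a response below that of e2e3, with list medians of -0.32 in e1e2 and -0.05 in e2e3. LHCB2.1 changed by -0.90 in e1e2 and -0.43 in e2e3 (difference adjusted p = 1.16e-08). Of 317 ribosomal protein genes, 44 had a response below that of e2e3, where the median was 0.28. In wax, cutin and suberin, 7 of 31 genes fell less in e1e2, KCS6 among them (-0.82 in e1e2 and -0.99 in e2e3). None of the 11 ethylene response transcription factor genes differed, and of the 18 perception genes EIN2 (difference 0.17, adjusted p = 0.0437) and EBF1 (difference 0.25, adjusted p = 0.0419) did. Responses larger in e2e3 included that of PXMT1, a methyltransferase gene: it did not pass in e1e2, at 24.99 and 23.7 CPM in ethylene, against 24.9 and 24.2 CPM in air. It had 51.8 and 52.1 CPM in e2e3 in ethylene, against 94.4 and 86.9 CPM in air. The cold-regulated gene KIN2 fell in e1e2, at 147 and 150.3 CPM in ethylene, against 215 and 222 CPM in air, and had 183 and 202 CPM in e2e3 in ethylene, against 166 and 164 CPM in air (difference -0.78, adjusted p = 7.75e-25). CER4, for alcohol-forming wax synthesis, had 6.398 and 7.08 CPM in ethylene, against 21.996 and 20.2 CPM in air in e1e2 and 3.49 and 4.32 CPM in e2e3 in ethylene, against 20.8 and 22.01 CPM in air. AT2G05510, a glycine-rich gene, had 139 and 143 CPM in ethylene, against 60.4 and 60.9 CPM in air in e1e2 and 102 and 106 CPM in e2e3 in ethylene, against 25.5 and 27.6 CPM in air, a difference of -0.75 in log2. FRO2 and the peroxidase gene AT1G49570 also rose less in e1e2, with differences of -0.72 (adjusted p = 0.0466) and -0.73 (adjusted p = 2.04e-11). The lines differ in which 2 subunit genes are mutated and are 1 isolate each, so the genotype and the isolate cannot be told apart.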

How the data were processed

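Poly(A)-selected RNA from 8 libraries (4 of e1e2, 4 of e2e3) was analysed. The authors deposited raw counts of read pairs per gene, made with featureCounts 2.0.1 on Araport11, without strand and without reads that map to several places, per the file headers. The submitters' processing notes name TAIR10, Trim Galore and STAR. Near-identical gene copies are therefore uncertain. The authors also deposited DESeq2 tables with log2 fold changes, p-values, a Wald statistic (score) and mean normalised counts (signal), of which the log2 fold changes of the wild-type list are quoted. Here, edgeR 4.0.16 (R 4.3.3) fitted the 8 libraries in 4 groups with TMM scaling, filterByExpr and the robust quasi-likelihood test. It kept 20193 of 36799 genes, adjusted by Benjamini-Hochberg, with a threshold of 0.05. Values after ± are SE of log2 changes. TPM used the deposited exon lengths. Exact 95% intervals of count ratios cover counting error only. DESeq2 1.42.0 and other settings were alternatives.

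Genes named by rule were, among called genes with at least 10 counts in each e1e2 library and a mean of at least 10 CPM, the 12 highest and 12 lowest log2 changes; the 2 of smallest p per list and direction; fixed key genes of the lists; the 10 most abundant by TPM changed at least 2-fold; the 8 highest and 8 lowest transcription factor genes; and the 5 largest wild-type changes each way. Not all are printed, and some results are not reported here. Other genes were chosen after their values were seen, as were 5 of the 60 lists, which go by annotated product, and 14 genes were removed from lists because an alias had matched the wrong gene. The members and lists were chosen with earlier results of these data known.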

Additional observations from a re-analysis of the deposited data

Results flagged for a closer look

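Of 280 genes named in the text, 33 had a response to ethylene that differed between the lines (adjusted p under 0.05). The test was the edgeR quasi-likelihood test of the difference, which 566 of all 20193 tested genes (2.8%) passed. Some of the 33, such as KIN2 and PXMT1, are described above only for that difference, so their number depends on the choice of genes. The value after each gene is the log2 response of e1e2 minus that of e2e3. The response was above that of e2e3 for 13 genes: AT1G12010 (0.88), AT1G72290 (0.86), CER4 (0.81), PXMT1 (0.79), HAI1 (0.47), WAG2 (0.39), MSS1 (0.26), EBF1 (0.25), HB52 (0.24), NRT1.1 (0.21), ABI1 (0.18), KCS6 (0.17) and EIN2 (0.17). It was below that of e2e3 for 20 genes: EXPA12 (-1.22), KIN2 (-0.78), EPR1 (-0.77), AT2G05510 (-0.75), AT1G49570 (-0.73), FRO2 (-0.72), PCNA2 (-0.71), AT1G78230 (-0.61), IRT1 (-0.60), LHCB2.3 (-0.51), LHCB2.1 (-0.47), PGAZAT (-0.42), mtLPD2 (-0.32), CYP79B3 (-0.30), PIP2E (-0.27), AT2G39980 (-0.26), MLS (-0.26), MCCB (-0.25), PORA (-0.21) and AT2G10940 (-0.18). EXPA12 rose in both lines, by a log2 change of 3.71 in e1e2 and 4.93 in e2e3. PORA, of etiolated plastids, had log2 changes of 0.22 in e1e2 and 0.43 in e2e3. The iron importer gene IRT1 had log2 changes of 0.71 in e1e2 and 1.31 in e2e3. HAI1, of abscisic acid signalling, had log2 changes of -1.37 in e1e2 and -1.84 in e2e3.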

How the results depend on the processing

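The count of genes called higher was 2273 in DESeq2, against 3694 in edgeR; the total was 5411 in DESeq2 and 8712 with library size alone, against 7911. Scaled by library size and nothing else, the split was 5220 higher to 3492 lower. Leaving out 1 library of either line gave 6327 to 7879 called genes, 2816 to 3694 of them higher and 3511 to 4238 lower, and 1274 to 1342 called at least 2-fold, 394 to 437 higher and 867 to 915 lower. Without the filter on low counts 7630 were called, without the robust option 7847, with DESeq2's size factors 7885 and with the 4 e1e2 libraries alone 7757. With the replicate number as a block, 7734 genes were called (3596 higher and 4138 lower) and 1312 at least 2-fold. Ethylene and air libraries with the same number had a correlation of deviations of -0.016. With 2 libraries a group, the deviations mirror each other, so this cannot show whether the numbers pair the libraries. The main fit treated them as unpaired. By sign of the log2 change alone, 385 of the genes higher and 682 of those lower with ethylene in wild type had the same sign in e1e2. Of 258 called genes named in the text, 239 kept their call in every setting run, 19 lost it in at least 1 and none changed direction. With 2 libraries a side, small changes in genes of few counts are the least certain.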
